A study of Mus musculus with 28 samples.

Results

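The comparison asked which genes differ with the genotype of the transplanted marrow in the same way in both populations of marrow-derived brain macrophages. It used 16 of the 28 libraries of the series. These were GFP-negative cells of the brain parenchyma (labelled MoMg) and of the leptomeninges, the thin membranes on the brain surface (labelled leptoMoMac), with 4 libraries per genotype and compartment. Of 14617 genes in the table, 10261 had enough counts to be tested for 1 common mutant minus control effect, with compartment as a covariate.

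Recipients were Cx3cr1 gfp/+ mice, whose own microglia and macrophages carry GFP, given lethal irradiation. Control marrow was hDNMT3A fl/fl, and mutant marrow was Vav-Cre: hDNMT3A fl/fl, in which the Cre is driven by a promoter active in blood-forming cells. The floxed human DNMT3A allele is therefore common to both groups and the Cre is what separates them, and cells were taken 16 weeks after transplantation. Up to 100000 sorted cells per library, or fewer where not enough were isolated, were measured by MARS-seq, which tags polyadenylated transcripts near their 3′ end and counts unique molecular identifiers (UMIs). The labels give neither age, sex nor background strain, and do not say whether each library is an animal of its own, so the p-values speak only of the spread among these libraries. The protocol takes leptomeningeal and parenchymal cells from the same brain in turn. Both compartments may therefore share animals and need not be independent repeats of an effect.

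DNMT3A adds methyl groups to cytosine in CpG pairs that were not methylated before, and it is among the genes most often mutated when a blood stem cell clone expands with age. Marrow-derived macrophages can fill the microglial niche and the brain borders after irradiation, where they take on part of the profile of resident cells. In bulk libraries a change in the share of a cell type and a change of RNA per cell cannot be told apart.

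The endogenous mouse gene Dnmt3a was seen in every library. Its level in CPM, the UMIs of a gene per 1000000 of the TMM-scaled library total, was 48.6, 71.5, 60.5 and 84.2 in the control parenchymal libraries 1 to 4, and 61.0, 64.0, 56.4 and 74.7 in the mutant ones. In the leptomeninges Dnmt3a was at 31.9, 23.4, 25.7 and 30.1 CPM in controls and 29.0, 17.1, 31.4 and 35.1 in mutants. The groups overlapped, and the shared log2 fold change of Dnmt3a was -0.01 ± 0.14 (standard error; adjusted p = 0.994, edgeR's quasi-likelihood test). The table was counted on the mouse genome, so it does not separate a human DNMT3A allele and does not check the genotype labels.

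Totals ran from 479077 to 692405 UMIs in control and from 487382 to 1013608 in mutant parenchymal libraries, and from 2159314 to 3066506 and from 1631558 to 2868575 in the leptomeninges. Homeostatic microglia markers took 3.48 to 4.35% of UMIs in the parenchyma and 1.46 to 2.07% in the leptomeninges, and border macrophage markers took 0.285 to 0.379% and 0.543 to 0.873%. Neutrophil markers were low in the parenchyma but took 3.74 to 10.1% of leptomeningeal UMIs. Choroid plexus and ependyma markers took 1.60 to 3.06% of UMIs in control and 2.07 to 3.35% in mutant parenchymal libraries, which overlapped. In the leptomeninges they took at most 0.0385%. The part of these cells in the results below was not tested.

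Of the 10261 genes, 7 passed an adjusted p of 0.05 (Benjamini-Hochberg over all genes tested), which is 0.0682%. The 5 higher in mutant cells (0.0487%) were Commd10, Spint1, Slc15a2, Eps8l1 and Hsph1, and the 2 lower (0.0195%) were Apobec3 and Gatm. A total of 717 genes had an unadjusted p under 0.05, with 4.00% of genes higher and 2.99% lower. The median log2 fold change of all genes was -0.00, and 49.9% of genes were positive.

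Spint1 encodes HAI-1, an inhibitor anchored in the cell membrane that blocks serine proteases such as matriptase. In the parenchyma its level was 15.5, 6.88, 9.30 and 12.7 CPM in the control libraries and 78.6, 71.2, 47.2 and 74.7 in the mutant ones. In the leptomeninges Spint1 was at 3.75, 0.697, 1.54 and 0.380 CPM in controls, which is 8, 2, 3 and 1 UMIs, and at 12.2, 7.89, 11.2 and 13.5 in mutants. Every mutant library lay above every control library of its compartment. The shared log2 fold change of Spint1 was 2.73 ± 0.24 (adjusted p = 1.45e-08, edgeR).

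Commd10 belongs to the COMMD family, which works with the Commander complex in sorting membrane proteins out of endosomes. Commd10 stood at 35.0, 19.3, 18.6 and 12.7 CPM in control and 90.6, 72.3, 73.1 and 84.5 in mutant parenchymal libraries. In the leptomeninges it stood at 13.1, 17.1, 16.4 and 17.9 CPM in controls and 72.8, 80.2, 51.2 and 56.7 in mutants. The genotypes did not overlap in either compartment, and Commd10 had the smallest p of all genes, with a shared log2 fold change of 1.97 ± 0.14 (adjusted p = 1.68e-10, edgeR). Its parenchymal and leptomeningeal effects were 1.94 ± 0.24 and 1.99 ± 0.19.

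Slc15a2 encodes PEPT2, a carrier that takes small peptides into cells together with protons. Its level was 0, 11.0, 3.10 and 1.59 CPM in control and 20.3, 18.6, 25 and 13.8 in mutant parenchymal libraries. The control library at 0 UMIs allows up to 5.83 CPM, the level of 3 UMIs, a limit that covers counting error only. In the leptomeninges Slc15a2 was at 5.63, 4.18, 8.72 and 6.47 CPM in controls and 26, 33.5, 30.4 and 30.9 in mutants. The genotypes did not overlap in either compartment, and the shared log2 fold change was 2.26 ± 0.23 (adjusted p = 3.2e-07, edgeR).

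Eps8l1 is a relative of EPS8, an adaptor that links receptor signalling to actin remodelling. Parenchymal levels were 15.5, 12.4, 9.30 and 9.53 CPM in controls and 34.2, 25.8, 25.9 and 25.5 in mutants. Leptomeningeal levels of Eps8l1 were 8.45, 4.53, 5.13 and 5.33 CPM in controls and 17.8, 18.4, 26.1 and 27.0 in mutants. All mutant libraries were above all controls of their compartment, and the shared log2 fold change was 1.69 ± 0.20 (adjusted p = 2.97e-06, edgeR).

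Apobec3, a cytidine deaminase that restricts retroviruses and retroelements, was the larger of the decreases. It was at 225, 153, 197 and 202 CPM in control and 121, 97.0, 140 and 104 in mutant parenchymal libraries. In the leptomeninges the controls of Apobec3 lay between 161 and 165 CPM and the mutants at 110, 114, 96.5 and 101. The genotypes did not overlap, and Apobec3 fell by 0.68 ± 0.09 on the log2 scale (adjusted p = 6.77e-05, edgeR).

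Gatm encodes the mitochondrial enzyme that makes guanidinoacetate, the precursor of creatine. It was at 577, 523, 525 and 545 CPM in control and 312, 357, 378 and 363 in mutant parenchymal libraries. In the leptomeninges Gatm was at 204, 166, 174 and 220 CPM in controls and 134, 147, 98.6 and 122 in mutants. The genotypes did not overlap in either compartment although the level itself differed between compartments, and Gatm fell by 0.61 ± 0.09 on the log2 scale (adjusted p = 0.000142, edgeR).

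Hsph1 encodes a large heat shock protein that works as a partner of HSP70. It was at 13.6, 20.6, 12.4 and 35.0 CPM in control and 32.4, 32.0, 60.1 and 51.1 in mutant parenchymal libraries, where control library 4 lay above 2 mutant libraries. In the leptomeninges Hsph1 was at 20.7, 20.9, 15.9 and 30.1 CPM in controls and 47.4, 31.6, 41.0 and 56.7 in mutants, which did not overlap. The shared log2 fold change was 1.03 ± 0.18 (adjusted p = 0.00846, edgeR). This call was lost when mutant leptomeningeal library 4 was left out (adjusted p = 0.0504), when both parenchymal libraries that stood apart in an earlier analysis, control 1 and mutant 4, were left out (adjusted p = 0.0642), and when both compartments of a number were averaged (adjusted p = 0.0806, limma).

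**Figure D1:**
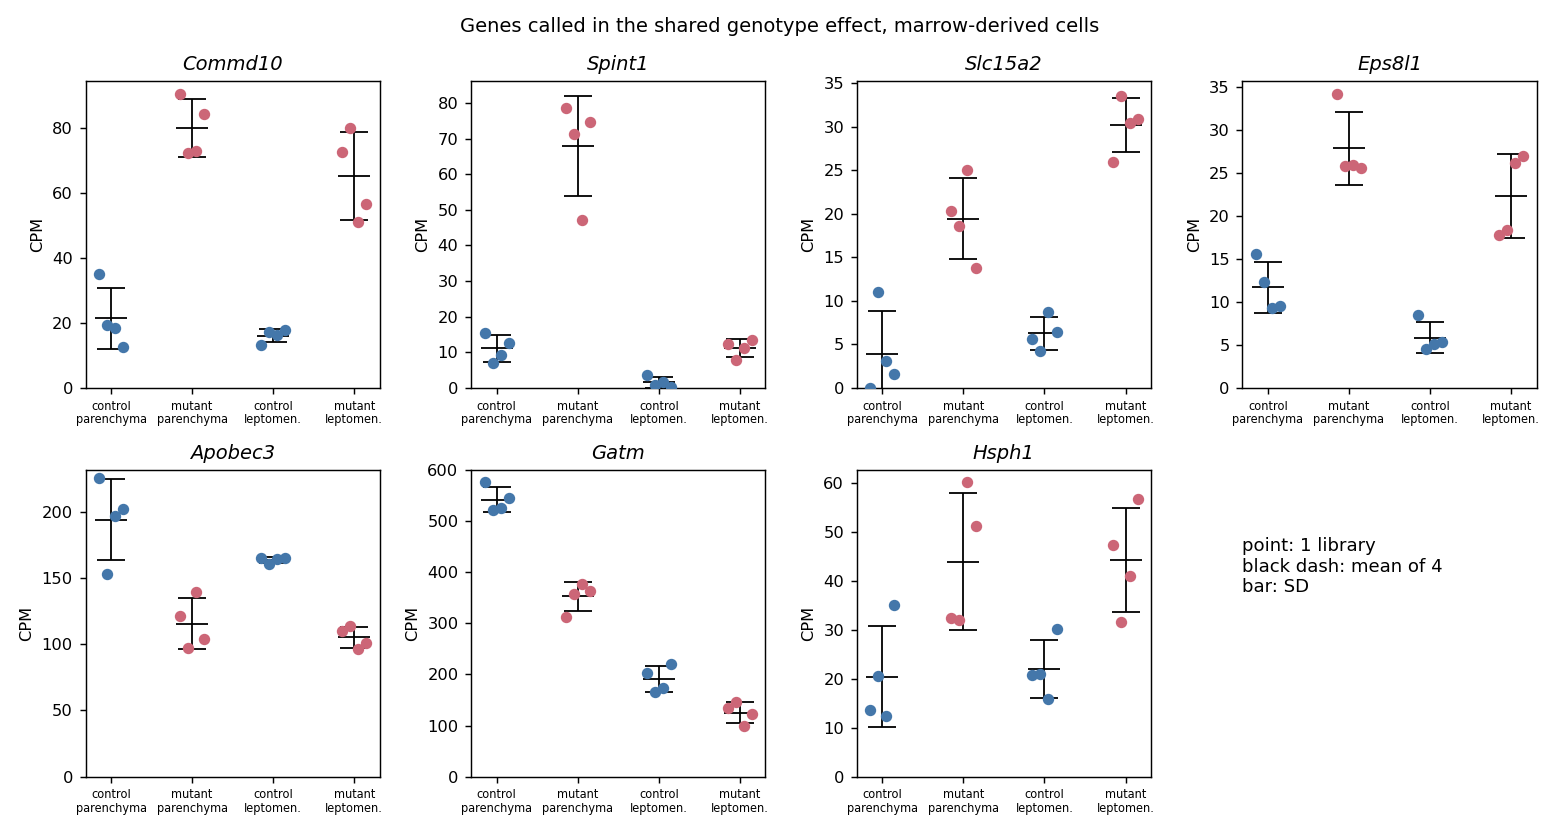
Level in CPM (vertical axes, linear) of the 7 genes that passed, in the 4 groups of marrow-derived libraries; each point is 1 library, the dash is the mean of 4 and the bar its SD, with controls in blue and mutants in red. Except for Hsph1 in the parenchyma, no mutant library lies within the range of the controls of its compartment.

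Of the 7, the 3 nearest to the threshold on its inner side were Apobec3, Gatm and Hsph1. On the outer side lay Chordc1, a co-chaperone of HSP90, at a log2 fold change of 1.12 ± 0.23 (adjusted p = 0.0530, edgeR), Rpl38, a protein of the large ribosomal subunit, at 0.50 ± 0.10 (adjusted p = 0.0530), and Lpl, the lipase of circulating triglycerides, at -0.73 ± 0.16 (adjusted p = 0.0634). Libraries of the 2 genotypes did not overlap, in the same direction in both compartments, for 22 genes (0.214% of those tested), 14 higher and 8 lower in mutants. The 22 included 6 of the 7 genes that passed, all but Hsph1. Without control parenchymal library 2, which had the highest share of astrocyte and mitochondrially encoded UMIs of its group, 43 genes passed, the 7 among them.

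Since DNMT3A acts on CpG pairs, the promoter windows of the genes that passed were counted for them. RefSeq (GRCm38.p6) gave a window of 300 bases, 250 before and 50 after 1 annotated start, for 8064 of the tested genes and for all that passed but Commd10, with a median of 21 CpG and quartiles of 13 and 29. Spint1 had 28, Gatm 22, Hsph1 19, Eps8l1 14, Apobec3 13 and Slc15a2 5, so both higher and lower genes fell on either side of the median or near it. No methylation was measured. The windows with the most and the fewest CpG are shown from 5′ to 3′ on the strand of the gene, with each CpG in capitals, Spint1 at chr2:119237110-119237409 and Slc15a2 at chr16:36784913-36785212.
Spint1: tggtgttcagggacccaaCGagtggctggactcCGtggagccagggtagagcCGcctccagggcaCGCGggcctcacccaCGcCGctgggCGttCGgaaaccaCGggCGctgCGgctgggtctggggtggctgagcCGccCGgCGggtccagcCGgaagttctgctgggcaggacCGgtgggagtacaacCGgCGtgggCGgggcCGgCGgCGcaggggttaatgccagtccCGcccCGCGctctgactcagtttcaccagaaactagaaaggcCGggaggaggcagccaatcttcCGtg
Slc15a2: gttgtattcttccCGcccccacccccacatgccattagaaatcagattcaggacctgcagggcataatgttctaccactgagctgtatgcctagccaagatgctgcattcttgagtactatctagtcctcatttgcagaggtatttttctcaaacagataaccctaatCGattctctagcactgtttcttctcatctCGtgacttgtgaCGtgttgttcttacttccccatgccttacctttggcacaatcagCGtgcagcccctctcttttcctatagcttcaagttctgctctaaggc

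Hsph1, Chordc1 and 5 other chaperone genes were searched for the paired repeats TTCNNGAA and GAANNTTC that heat shock factors bind. Both motifs read the same on either strand and may overlap each other. TTCNNGAA was in 6.88% and GAANNTTC in 5.52% of the 8064 windows, and either in 11.6%. The Hsph1 window at chr5:149636287-149636586 held 2 and 1, and that of Chordc1 at chr9:18292017-18292316 held 3 and 2, given here with the matches in capitals, where overlapping matches run together. Hspe1 held 2 and 1, Hspa1a and Hspa1b each 0 and 1, and Dnajb1 and Hspd1 0 of both, and none of these 5 passed with edgeR. The chaperones were chosen with their values known, and a match describes the letters only.
Hsph1: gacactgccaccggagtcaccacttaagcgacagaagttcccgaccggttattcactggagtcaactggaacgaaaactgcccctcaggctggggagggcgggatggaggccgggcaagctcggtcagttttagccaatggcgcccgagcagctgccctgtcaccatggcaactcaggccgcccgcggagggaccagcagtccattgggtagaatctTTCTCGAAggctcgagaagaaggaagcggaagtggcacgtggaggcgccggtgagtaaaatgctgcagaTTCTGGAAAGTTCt
Chordc1: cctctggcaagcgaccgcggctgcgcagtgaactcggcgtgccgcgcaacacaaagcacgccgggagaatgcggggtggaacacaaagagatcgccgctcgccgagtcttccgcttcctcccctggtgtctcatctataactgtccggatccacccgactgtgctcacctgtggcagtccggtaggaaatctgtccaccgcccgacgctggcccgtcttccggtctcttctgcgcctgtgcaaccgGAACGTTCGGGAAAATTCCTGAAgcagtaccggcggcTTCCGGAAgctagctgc

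Each compartment was then read on its own, in a fit with 1 mean per group. In the parenchyma 10 genes passed (0.0975%): Spint1, Commd10, Slc15a2, Apobec3 and Gatm of the shared genes, and Per1, Plac8, Rpl38, Il1b and Tsc22d3. In the leptomeninges 5 passed (0.0487%), Commd10, Slc15a2, Eps8l1, Spint1 and Apobec3, all of them shared genes. The difference between the leptomeningeal and parenchymal effects was tested for every gene, and 0 of 10261 passed (0%) with edgeR, while 525 had an unadjusted p under 0.05. Without control parenchymal library 2 the same test called 88 genes. With DESeq2 2 genes passed, Gad1, the neuronal enzyme that makes GABA, at -5.93 and Mvb12a at 0.76, and with limma's voom 1, Gad1 at -4.67, both named after their values were seen. Neuron markers took 0.0689 to 0.222% of UMIs (median 0.0966%) in control and 0.175 to 0.255% (median 0.201%) in mutant parenchymal libraries, and their part in the Gad1 difference was not tested.

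The shared genes had the same direction in both compartments. They were chosen by their common effect in these same libraries, so this agreement follows in large part from the choice and is no separate evidence. The leptomeningeal minus parenchymal difference was 0.25 ± 0.47 for Spint1, 0.06 ± 0.31 for Commd10, 0.09 ± 0.63 for Slc15a2, 0.67 ± 0.40 for Eps8l1, 0.09 ± 0.19 for Apobec3, 0.01 ± 0.18 for Gatm and -0.06 ± 0.40 for Hsph1, with adjusted p from 0.905 to 0.997 (edgeR). Tests that did not pass do not show that the effects are equal.

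**Figure D2:**
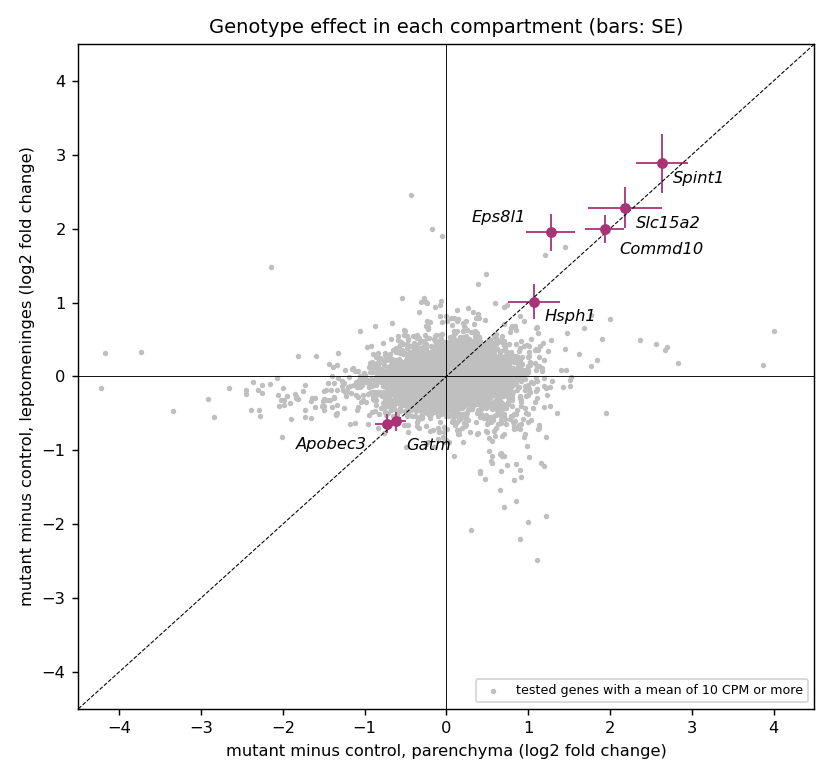
Mutant minus control log2 fold change in the parenchyma (horizontal) against the leptomeninges (vertical); grey points are tested genes with a mean of 10 CPM or more, 10 of which lie outside the axes, purple points are the 7 genes that passed with their SE, and the dashed line marks equal effects. Spint1, Slc15a2, Commd10 and Hsph1 lie near the line, Eps8l1 above it, and Apobec3 and Gatm below 0 on both axes.

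The genes called only when the parenchyma was read alone had smaller leptomeningeal values, and none of the differences passed with all 16 libraries. Per1, a core clock gene that glucocorticoids induce, had log2 fold changes of 1.24 ± 0.19 in the parenchyma (adjusted p = 0.00136) and 0.35 ± 0.14 in the leptomeninges (adjusted p = 1.0), and 0.67 ± 0.14 shared (adjusted p = 0.0783, edgeR). Parenchymal Per1 was 29.1, 42.6, 37.2 and 65.1 CPM in controls and 85.0, 89.8, 133 and 108 in mutants, without overlap. Leptomeningeal Per1 was 122, 122, 128 and 105 CPM in controls and 140, 161, 157 and 149 in mutants, also without overlap. Tsc22d3, also called GILZ, a mediator of glucocorticoid action, had 0.85 ± 0.17 in the parenchyma (adjusted p = 0.0395) and a shared value of 0.49 ± 0.12 (adjusted p = 0.112). Host cells, which lack the marrow allele, also differed with genotype in Tsc22d3, by 0.63 ± 0.12 (adjusted p = 0.0238), and the donor minus host difference was -0.08 ± 0.16 (adjusted p = 0.990, edgeR). For Per1 the host effect was 0.45 ± 0.14 (adjusted p = 0.495) and the donor minus host difference 0.33 ± 0.19 (adjusted p = 0.908).

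Il1b, the inflammatory cytokine interleukin-1 beta, had 0.78 ± 0.15 in the parenchyma (adjusted p = 0.0254) and 0.48 ± 0.11 shared (adjusted p = 0.112, edgeR). Its parenchymal level was 155, 150, 186 and 159 CPM in controls and 320, 314, 199 and 285 in mutants. In the leptomeninges Il1b overlapped between 589 and 773 CPM in controls and between 709 and 1002 in mutants. Plac8, a gene of monocytes and neutrophils, had -1.66 ± 0.28 in the parenchyma (adjusted p = 0.00627) and a shared value of -0.83 ± 0.18 (adjusted p = 0.112). Plac8 was at 42.7, 33.0, 60.5 and 38.1 CPM in control and 12, 20.6, 11.1 and 9.82 in mutant parenchymal libraries. Neutrophil markers stood at 0.144 to 1.12% of UMIs in control and 0.112 to 0.195% in mutant parenchymal libraries, and their part in these results was not tested.

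Host cells of the same recipients, 12 GFP-positive libraries, do not carry the marrow allele. The mean donor effect minus the mean host effect, fitted over all 28 libraries and 12327 genes, passed for 4 genes (0.0324%), Spint1, Commd10, Apobec3 and Eps8l1, and 656 genes had an unadjusted p under 0.05. The difference was 3.28 ± 0.28 for Spint1 (adjusted p = 4.94e-11), 1.56 ± 0.22 for Commd10 (adjusted p = 6.44e-05), 1.56 ± 0.29 for Eps8l1 (adjusted p = 0.00695) and -0.76 ± 0.14 for Apobec3 (adjusted p = 0.00581), by edgeR. The host effects within these differences were -0.53 ± 0.17 for Spint1, 0.39 ± 0.17 for Commd10, 0.04 ± 0.19 for Eps8l1 and 0.06 ± 0.10 for Apobec3, and none of them passed. Without control host leptomeningeal library 1, the Eps8l1 and Apobec3 differences were 1.36 (adjusted p = 0.318) and -0.66 (adjusted p = 0.134). Without mutant host leptomeningeal library 2, that of Eps8l1 was 1.47 (adjusted p = 0.0745). Host leptomeninges had 2 libraries per genotype.

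The levels of donor cells are read against those of the hosts. Donor CPM were scaled over the 16 donor libraries and host CPM over all 28, so close values could change order on 1 scale. Spint1 was at 226 to 279 CPM in the 8 host microglia libraries, above every donor library, and at 17.5 to 49.3 CPM in the 4 host leptomeningeal libraries. By genotype, the host leptomeningeal values of Spint1 were 49.3 and 37.0 CPM in controls and 26.8 and 17.5 in mutants. Commd10 was at 29.1 to 47.3 CPM in host microglia and 23.1 to 39.1 in host leptomeningeal cells, so the mutant donor libraries, at 51.2 CPM or more, lay above all host libraries. Of the control donor libraries only parenchymal library 1, at 35.0 CPM of Commd10, lay within the host range. Eps8l1 was at 18.3 to 53.9 CPM in host microglia and 20.2 to 43.4 in host leptomeningeal cells, and of the mutant donor libraries all but leptomeningeal library 1, at 17.8 CPM, lay within that span. Apobec3 was at 155 to 221 CPM in all host libraries, above every mutant donor library. Homeostatic microglia markers, as a measure of host-like cells, took 3.59 to 4.35% of UMIs in control and 3.48 to 4.16% in mutant parenchymal libraries.

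For the other 3 genes the donor minus host difference did not pass. For Slc15a2 it was 1.99 ± 0.53 (adjusted p = 0.673), for Gatm -0.57 ± 0.15 (adjusted p = 0.581) and for Hsph1 0.11 ± 0.31 (adjusted p = 1.0, edgeR). The host genotype effect of Hsph1 was 0.92 ± 0.23 (adjusted p = 0.161), near the 1.03 of the donor cells. Hsph1 was at 7.75 to 15.2 CPM in control and 12.6 to 25.1 in mutant host microglia, and at 22.3 and 26.9 against 41.3 and 60.7 in host leptomeningeal cells.

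**Figure D3:**
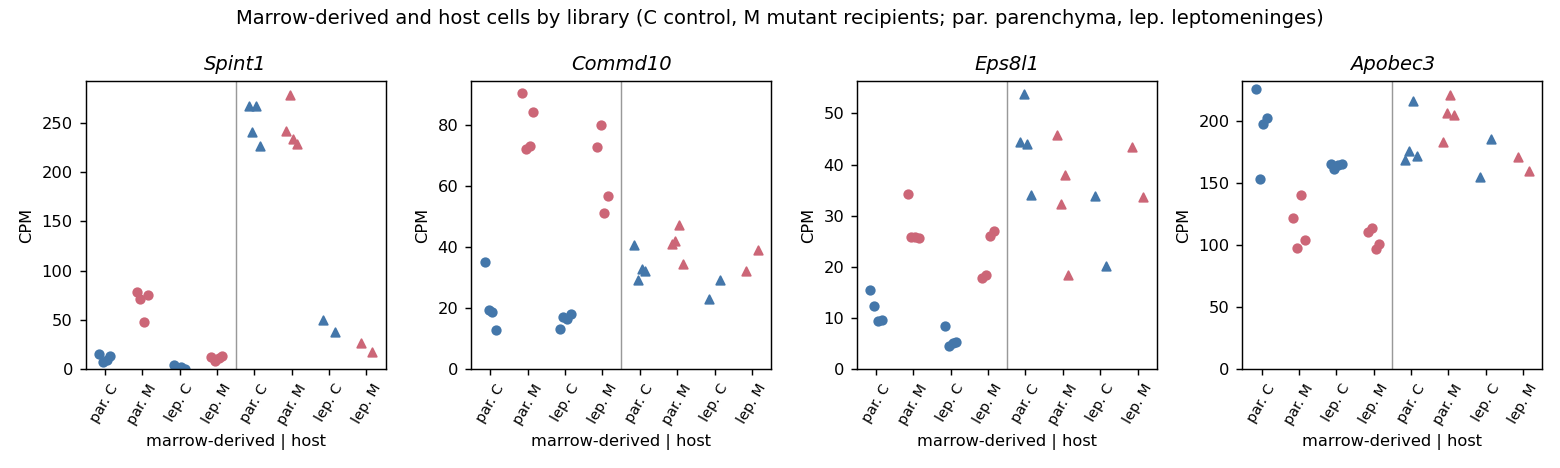
Level in CPM (linear axes) of the 4 genes whose donor effect differed from the host effect, with marrow-derived libraries as circles and host libraries as triangles, controls in blue and mutants in red, 1 point per library (2 per host leptomeningeal group). Spint1 in mutant donor microglia, at 47.2 to 78.6 CPM, lies between control donors and host microglia. Donor CPM were scaled over the 16 donor libraries and host CPM over all 28.

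The genes that passed lie on 6 chromosomes of mm10. Spint1 (chr2:119237362-119249527, plus strand) and Gatm (chr2:122594467-122611303, minus strand) are 3.36 Mb apart on chromosome 2. Commd10 lies at chr18:46958816-47234284, Slc15a2 at chr16:36750177-36784962, Eps8l1 at chr7:4460674-4480487, Apobec3 at chr15:79891659-79915906 and Hsph1 at chr5:149614287-149636376. Of the tested genes within 1 Mb, those with an unadjusted p under 0.05 were 5 of 27 around Spint1 (log2 fold changes from -1.17 to 0.60), 5 of 42 around Eps8l1, 4 of 36 around Apobec3 and 1 of 10 around Gatm. There were 0 of 6, 12 and 8 around Commd10, Slc15a2 and Hsph1. Over all genes tested, 4.00% were higher and 2.99% lower at that level. None of these neighbours passed with edgeR, and at a background of 0.0682% hardly any would be called among so few. The nearest tested genes on either side had log2 fold changes from -0.58 to 0.63.

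Among the relatives of each gene that passed, the gene itself was the only call. Of 21 tested COMMD and Commander genes 1 passed, Commd10, and the median was -0.04. Of 13 serine proteases and inhibitors 1 passed, Spint1 (median 0.01), of 15 peptide and amino acid transporters 1, Slc15a2 (0.07), and of 20 EPS8 family and actin genes 1, Eps8l1 (-0.08). Of 17 cytidine deaminases and retroelement restriction genes 1 passed, Apobec3 (-0.09), and of 10 genes of creatine and arginine metabolism 1, Gatm (0.07). Background rates were 0.0487% higher and 0.0195% lower, and these lists were written around genes known from earlier results.

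The writers, erasers and readers of DNA methylation gave no call among 16 tested, with 5 positive, 0 at an unadjusted p under 0.05 and a median of -0.06 (edgeR). Dnmt1, the maintenance enzyme, was at -0.16 ± 0.15 (adjusted p = 0.884) and Tet2, which oxidises methylcytosine, at -0.16 ± 0.15 (adjusted p = 0.869). Uhrf1, which brings Dnmt1 to replicated DNA, was at -0.56 ± 0.31 (adjusted p = 0.771). Of 18 imprinted genes, whose expression depends on methylation, none passed with edgeR. Of them 1 was higher at an unadjusted p under 0.05 (background 4.00%), and the median was -0.12. Of 25 germline genes held silent by methylation, 2 were in the table and 0 had counts enough to be tested.

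The most uniform group was the cytosolic ribosomal proteins. None of the 78 tested passed alone in the edgeR test, yet all 78 had positive values, 54 had an unadjusted p under 0.05, all in the higher direction (background 4.00%), and the median was 0.25 against -0.00 for all genes. Their summed share was 7.38 to 8.49% of UMIs in control and 9.09 to 9.83% in mutant parenchymal libraries, and 12.4 to 13.8% against 13.9 to 15.7% in the leptomeninges, without overlap in either. Rpl28 was at 0.32 ± 0.07 (adjusted p = 0.105) and Rps6 at 0.40 ± 0.11 (adjusted p = 0.233). The host median of the list was 0.10, and the shared median stayed between 0.19 and 0.26 over 21 alternatives. Ribosomal protein genes have many near-identical pseudogene copies, so single values are uncertain.

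The nuclear-encoded respiratory chain had 66 of 74 members positive, and 11 had an unadjusted p under 0.05, all higher (background 4.00%). The list median was 0.11, with 0.25 in the parenchyma and 0.02 in the leptomeninges. All 9 mitochondrially encoded genes were positive (median 0.29), but none had an unadjusted p under 0.05, and their share of UMIs overlapped between genotypes. That share was 1.58 to 4.71% (median 2.16%) in control and 2.50 to 4.12% (median 3.51%) in mutant parenchymal libraries.

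Cell cycle genes pointed down. Of 33 tested 1 was positive, 9 had an unadjusted p under 0.05, all lower (background 2.99%), none passed with edgeR, and the median was -0.42, with -0.52 in the parenchyma and -0.42 in the leptomeninges and 0.12 in hosts. Aurkb, a mitotic kinase, was at -0.70 ± 0.21 (adjusted p = 0.267) and Mcm7, a subunit of the replicative helicase, at -0.43 ± 0.16 (adjusted p = 0.515). Cell cycle genes took 0.0478 to 0.0810% of UMIs in control and 0.0411 to 0.0425% in mutant parenchymal libraries, without overlap, and 0.112 to 0.227% against 0.0948 to 0.174% in the leptomeninges, which overlapped. Monocyte markers had 13 of 14 members negative, and neutrophil markers 16 of 18, with medians of -0.35 and -1.0. Neutrophil markers had medians of -2.05 in the parenchyma and -0.20 in the leptomeninges. Their UMI shares overlapped between genotypes in both compartments. In the parenchyma they spread from 0.144 to 1.12% (median 0.591%) in control and from 0.112 to 0.195% (median 0.133%) in mutant libraries. With the neutrophil genes as a covariate, an alternative added after seeing the data, the cell cycle median was -0.17 and that of monocyte markers -0.12. The ribosomal protein median was 0.19 with the same covariate.

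Lists of antigen presentation and inflammation gave no call in the edgeR test. Over all genes tested, 4.00% were higher and 2.99% lower at an unadjusted p under 0.05. MHC class II genes had 10 of 11 members positive, 5 with an unadjusted p under 0.05 and a median of 0.20, with 0.17 in hosts. Cd74, the invariant chain, was at 0.26 ± 0.10 (adjusted p = 0.519), and H2-Eb1 at 0.29 ± 0.09 (adjusted p = 0.309). MHC class I genes had 19 of 22 positive, 3 with an unadjusted p under 0.05 and a median of 0.05, below the host median of 0.14. H2-Q6 was at 0.47 ± 0.10 (adjusted p = 0.0640), and its near copy H2-Q7 at 0.33 ± 0.12 (adjusted p = 0.507), so reads may be split between them. Interleukin-1, interleukin-6 and TNF genes had 15 of 21 positive, 5 with an unadjusted p under 0.05, all higher, and a median of 0.08 (host median -0.01). Type I interferon genes had 36 of 42 positive, 1 at that level and a median of 0.11, below the host median of 0.20. Their summed share of UMIs overlapped between genotypes, at 0.342 to 0.489% (median 0.450%) in control and 0.347 to 0.540% (median 0.412%) in mutant parenchymal libraries. In the leptomeninges the interferon share had medians of 0.559% in controls and 0.538% in mutants. Dendritic cell markers had 10 of 11 positive (median 0.46, 4 with an unadjusted p under 0.05).

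Stress and clock genes gave 1 call, Hsph1, among 26 immediate early and heat shock genes, of which 22 were positive and 8 had an unadjusted p under 0.05, all higher (background 4.00%). The median of the list was 0.11 shared, 0.27 in the parenchyma, 0.02 in the leptomeninges and 0.12 in host cells. Glucocorticoid-responsive and clock genes had 17 of 20 positive, and 6 had an unadjusted p under 0.05, all higher (background 4.00%). None of them passed with edgeR, and the list medians were 0.33 in the parenchyma, 0.05 in the leptomeninges and 0.07 in hosts. Actinomycin D, which limits transcription, was present during digestion, and the part of handling in these values was not tested.

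No identity gene passed. Tmem119, a microglia marker, was at 0.00 ± 0.17, Mrc1, a border macrophage marker, at -0.16 ± 0.10 and Apoe at -0.13 ± 0.11 (adjusted p = 0.999, 0.814 and 0.859, edgeR). In the parenchyma alone Mrc1 was at 203 to 262 CPM in control and 167 to 194 in mutant libraries (log2 fold change -0.35 ± 0.15, adjusted p = 0.480), and Apoe had -0.31 ± 0.14 (adjusted p = 0.504). Disease-associated microglia genes took 10.5 to 14.4% of UMIs in control and 9.18 to 11.2% in mutant parenchymal libraries, and cholesterol synthesis and efflux genes 8.96 to 12.2% and 7.55 to 9.47%, both overlapping. Apoe is a member of both lists and gave 58195 of the 479077 UMIs of control parenchymal library 1, so both shares largely follow this gene. The median log2 fold changes of the lists in the parenchyma, where each gene counts the same, were -0.07 and 0.06. Homeostatic microglia, border macrophage and marrow-derived microglia lists had medians of -0.04, 0.03 and -0.05, with no member passing with edgeR and 1, 2 and 3 members at an unadjusted p under 0.05. The shares over all genes tested were 4.00% higher and 2.99% lower at that level. The astrocyte markers took 0.146 to 0.700% of UMIs (median 0.208%) in control and 0.390 to 0.628% (median 0.482%) in mutant parenchymal libraries. The highest control share was that of library 2. In the leptomeninges astrocyte markers took at most 0.0294%, and the shared median log2 fold change of the list was 0.38. All 7 calls were also made with the astrocyte and neuron genes, or the neutrophil genes, as a covariate, where the Spint1 value was 3.00 and 2.61 and that of Commd10 2.04 and 1.76.

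**Figure D4:**
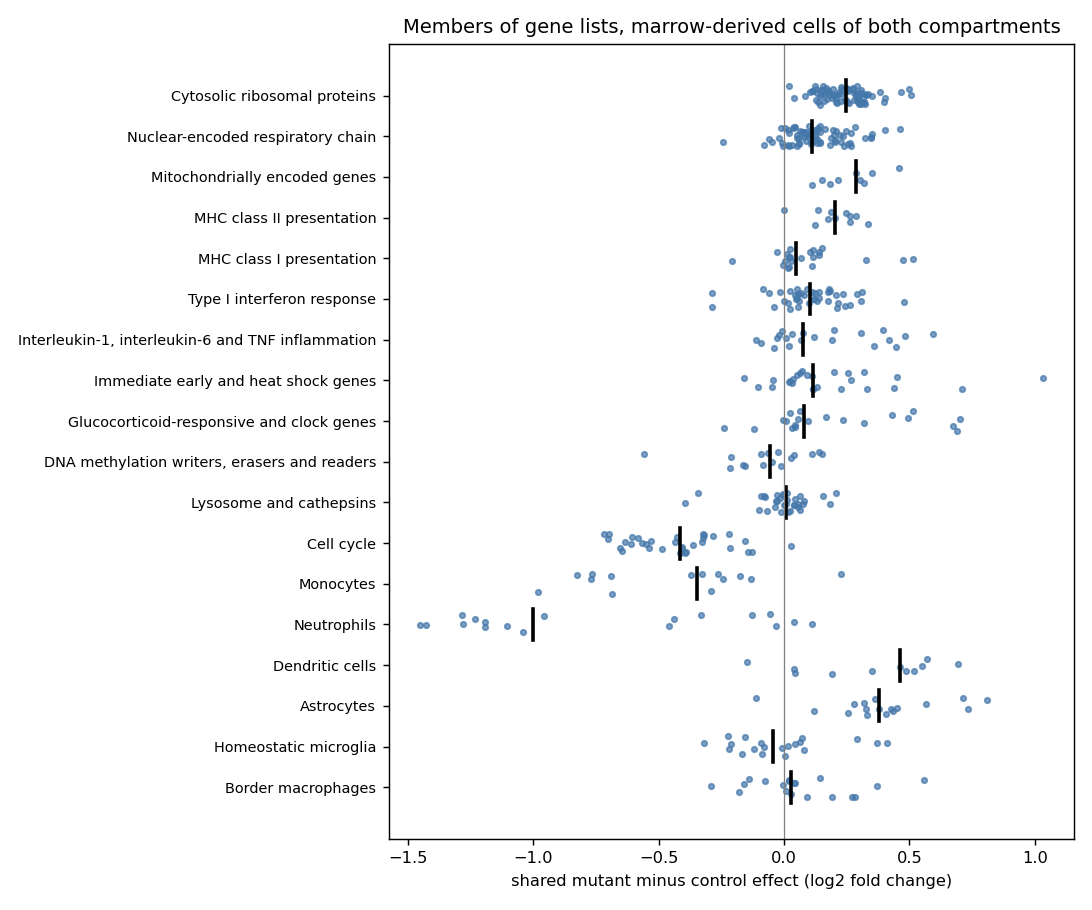
Shared mutant minus control log2 fold change (horizontal axis) of every tested member of 18 gene lists; each point is 1 gene and the black bar is the list's median. Ribosomal proteins lie above 0 in 78 of 78 members, and cell cycle genes below 0 in all but 1.

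**Figure D5:**
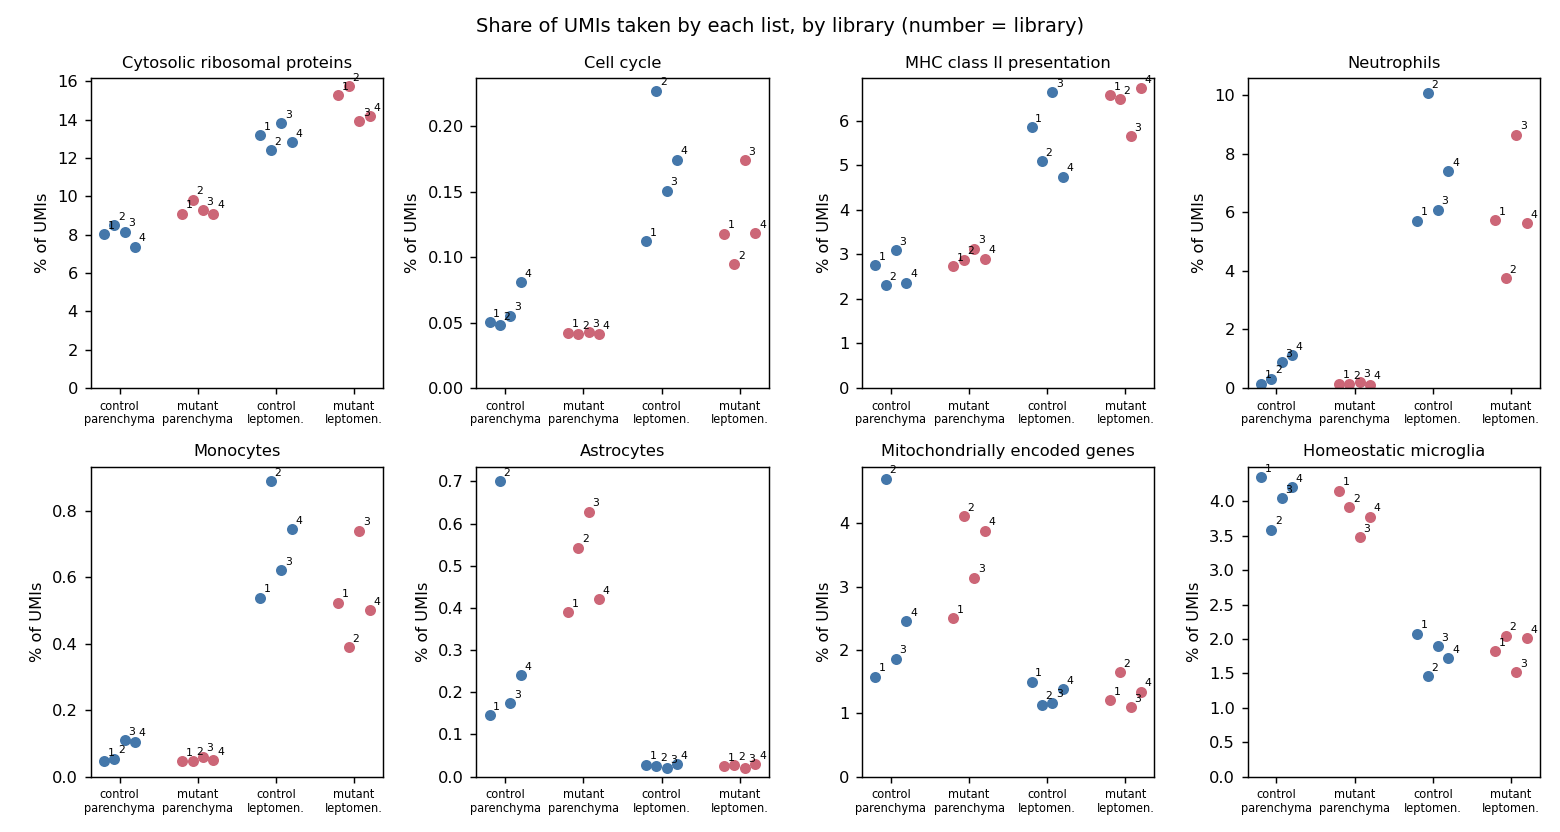
Percent of a library's UMIs taken by 8 gene lists (vertical axes, linear from 0) in the 4 marrow-derived groups; each numbered point is 1 library, controls in blue and mutants in red. The ribosomal share is higher in all mutant libraries of a compartment, while neutrophil shares overlap between genotypes in both compartments.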

How the data were processed

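MARS-seq libraries of sorted mouse brain macrophages were compared, 16 of 28 in 4 groups of 4. The authors deposited 1 table of raw UMI counts per gene symbol on mm10 per the submitters' processing notes, beside normalized columns that were not used here. For the aligner, the name was not given in the sources used. Counts were tested with edgeR 4.0.16 (R 4.3.3): filterByExpr, TMM, robust quasi-likelihood fits and Benjamini-Hochberg adjustment at 0.05. The shared effect is the genotype term beside a compartment term, and the compartment effects and their difference come from a fit with 1 mean per group. Standard errors are the fold change over the root of F. CPM are UMIs per 1000000 of the TMM-scaled total, scaled over the 16 libraries for donor cells and over all 28 for host cells. Alternatives used DESeq2 1.42.0, limma 3.58.1 (voom), other filters and scaling, covariates, replicate blocks and each library left out. The fit was tested on simulated data.

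The genes named are those that passed, the 3 on either side of the threshold, up to 2 or 3 members per list with the smallest p and a fixed set, by a written rule. Others are named where a count is small. Members and gene lists were chosen with earlier results of these data known. Same-numbered libraries of a genotype in both compartments had deviations that correlated between -0.13 and 0.11, against -0.16 to 0.18 for other numbers. Such correlations cannot decide whether a number marks an animal sampled in both compartments. The main fit did not pair the numbers and treated the 16 libraries as independent. Promoter windows are from RefSeq and positions from GENCODE.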

Additional observations from a re-analysis of the deposited data

Results flagged for a closer look

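The genotype effect of donor cells differed from that of host cells, by a test of the difference over all 28 libraries (edgeR), for Spint1 (3.28 on the log2 scale), Commd10 (1.56), Eps8l1 (1.56) and Apobec3 (-0.76).

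Of 128 groups of 4 libraries examined, 1 value stood far from the others in 3, and chance alone gives this in about 1 in 20 groups, which is more than were found. Eps8l1 was at 34.2 CPM in mutant parenchymal library 1 against 25.5 to 25.9 in the others. Man1a, a mannosidase of the Golgi, was at 48.0 CPM in mutant leptomeningeal library 2 against 39.2 to 40.5. Rps6 was at 308.9 CPM in control leptomeningeal library 2 against 283.7 to 285.4.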

How the results depend on the processing

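Against 7 genes in the shared effect, DESeq2's Wald test called 84, and 39 without its independent filtering, an alternative added after seeing the data. DESeq2 gave no adjusted p to 6 of the 7 with filtering and called all 7 without. Limma's voom called 35. A replicate block gave 17 genes with a number's compartments as 1 animal and 18 with them averaged (6 of the 7, without Hsph1). Fitting all 28 libraries gave 14, the mean of both compartments' effects 15 and the astrocyte and neuron covariate 11. Leaving out each library gave 6 to 43 genes, with 43 without control parenchymal library 2. The interaction had 2 genes by DESeq2 with or without filtering, 1 by voom and 0 to 88 with a library left out, 88 without control parenchymal library 2. Donor minus host had 7 by DESeq2 with or without filtering and 3 to 11 with a library left out. The cause was not tested.

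Some values changed sign. With voom, Hps6 was 0.0119, Ddx3y 0.00191 and Dnmt3a 0.00723, and the interaction was -0.12 for Commd10, -0.55 for Slc15a2 and 0.0542 for Hsph1. Tmem119 was -0.00582 with 28 libraries and -0.0704 with the neutrophil covariate, where Dnmt3a was 0.11. Dnmt3b was 0.0622 without the libraries that stood apart and 0.050 with the astrocyte and neuron covariate, where Ddx3y was 0.0293. The interaction of Gatm was -0.00388 without a filter. With a library left out, Dnmt3a ran from -0.0912 to 0.0633, Dnmt3b from -0.178 to 0.0608 and Tmem119 from -0.0793 to 0.13. The interaction ran from -0.24 to 0.24 for Commd10, -0.0781 to 0.0959 for Gatm, -0.44 to 0.18 for Hsph1, -1.24 to 0.42 for Slc15a2 (0.09 with all libraries) and -0.0875 to 1.06 for Spint1, and donor minus host of Hsph1 from -0.00819 to 0.30.

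The parenchymal libraries are the shallowest, and low genes such as Slc15a2 rest on few UMIs there.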
